A study of Mus musculus with 4 samples.

Results

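The Cyp4 genes described here encode cytochrome P450 enzymes of the Cyp4a, Cyp4b, Cyp4f and Cyp4v subfamilies in mouse liver. Members were taken by name: every probe set, a group of array probes against 1 transcript, whose platform annotation named exactly 1 gene, that gene being one of 10 listed Cyp4 genes. This gave 12 probe sets for 9 genes, of 34945 probe sets with 1 gene name and 45037 probe sets in all. Cyp4a10, the tenth gene, had no probe set of its own, and its shared probe set is described separately. Total RNA of mature liver from C57BL/6J mice was hybridised to Affymetrix arrays 48 h after surgery. There were 2 arrays after partial hepatectomy, surgery that cuts away liver lobes so that the remnant regrows, and 2 arrays after a sham operation. The design text calls the 2 arrays of a group biological duplicates; the labels state neither sex nor age, nor whether the RNA of an array was pooled over animals. The p-values therefore measure the spread between these arrays, and their number limits the precision of every value.

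Cyp4 enzymes place a hydroxyl group at or next to the methyl end of a fatty acid, a step called omega-hydroxylation, after which alcohol and aldehyde dehydrogenases turn the product into a dicarboxylic acid that peroxisomes can shorten. The Cyp4a enzymes of mouse liver are best known as genes switched on by the nuclear receptor Ppara during fasting and after peroxisome proliferators. Cyp4f enzymes hydroxylate eicosanoids such as leukotriene B and its relatives, which ends their signal, and Cyp4b1 is known for its activation of protoxins in lung. In the RefSeq gene order, Cyp4a14, Cyp4a10, Cyp4a31, Cyp4a32 and Cyp4b1 follow one another with no other protein-coding gene between them, and Cyp4f14 lies next to Cyp4f13.

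Cyp4b1 was the member with a called difference, so the stretch around its start site is shown, from 250 bases before to 50 bases after the RefSeq start in the GRCm38.p6 build, at chr4:115647672-115647971 on the minus strand. Capitals mark a TATAA run on the gene's strand.
Cyp4b1: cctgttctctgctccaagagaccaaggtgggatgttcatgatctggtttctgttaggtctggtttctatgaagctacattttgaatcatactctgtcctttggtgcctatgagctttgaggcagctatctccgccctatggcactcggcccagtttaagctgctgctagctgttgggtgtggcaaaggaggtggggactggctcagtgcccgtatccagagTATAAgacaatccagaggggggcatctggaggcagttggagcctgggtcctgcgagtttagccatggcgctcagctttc
The TATAA run began 29 bases before the start. It was found in 17.5% of all 32851 RefSeq windows of this length, and among the 7 members with a window only in that of Cyp4b1. The nuclear receptor half-site AGGTCA, searched on both strands, was in 16.3% of all windows and in none of the 7 members' windows. TTCNNNGAA, the letters that Stat factors bind, was on either strand of 8.3% of all windows and of those of Cyp4b1 and Cyp4f13, and CCAAT was in 37.4% and in 5 members' windows, not that of Cyp4b1. No window was found for Cyp4a10, Cyp4a12a and Cyp4a14.

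Partial hepatectomy was followed by a lower Cyp4b1 signal, while no other Cyp4 member passed the test. The group means of Cyp4a14 and Cyp4a12a lay within 1.32-fold of sham, Cyp4a14 being on the higher side and Cyp4a12a on the lower. A probe set was called where limma, fitted on log2(signal + 8.57) over all 27022 probe sets above a filter on dim signals, gave a Benjamini-Hochberg adjusted p under 0.05. Of the 10 tested member probe sets, 1 was called lower and 0 higher, against 0.877% of all tested probe sets called lower and 2.51% called higher. At an unadjusted p under 0.05 there were 6 members, against 16.6% of all probe sets. Both hepatectomy arrays lay below both sham arrays for 6 of the 10, where 23.3% of all probe sets did so, and above them for 2 of the 10, where 24.4% did so. The median log2 difference, hepatectomy minus sham, was -0.34 over the 10 and 0.0013 over all probe sets tested. The 10 include both probe sets of Cyp4v3, and these counts describe the arrays without a test of the family as a group.

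**Figure D1:**
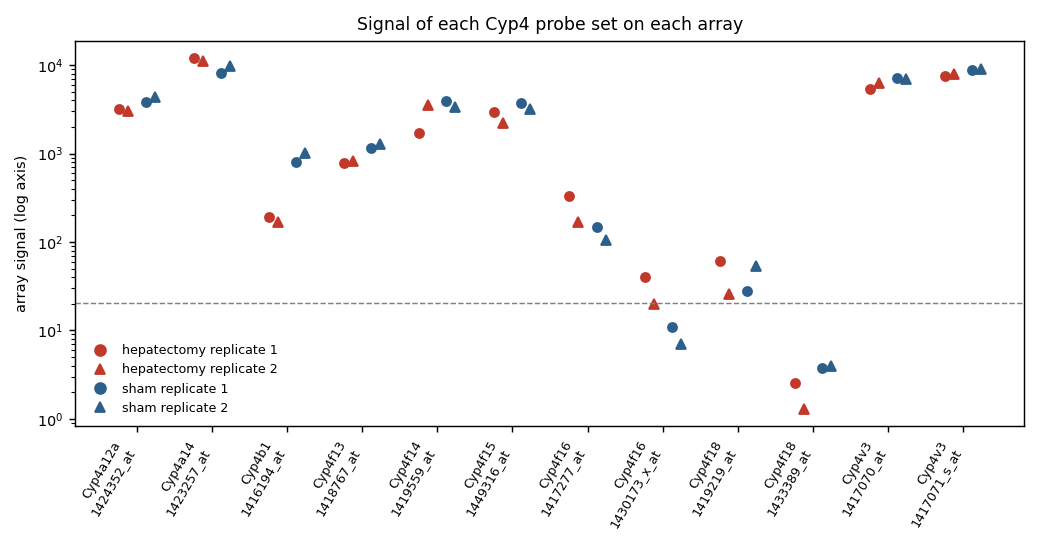
Array signal on a log axis for the 12 probe sets of 9 Cyp4 genes, with 2 hepatectomy arrays (red) left of 2 sham arrays (blue) and circles and triangles for replicates 1 and 2. The dashed line is the highest signal of bacterial control probe sets, 20.4; Cyp4b1 shows the widest gap between groups, and 1 probe set of Cyp4f18 lies under the line on every array.

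Cyp4b1 had signals of 190 and 169 on the hepatectomy arrays, against 809 and 1021 on the sham arrays. All 4 values were above the bacterial control level, and the groups were far apart, with a smaller gap between replicates in either group than between groups. The mean was 179 ± 14.5 after hepatectomy and 915 ± 150 after sham (SD, n = 2 arrays each), so the sham mean was 5.10 times the hepatectomy mean. The log2 difference was -2.29 ± 0.23 (SE; adjusted p = 0.00188 by limma), with a 95% interval from -2.81 to -1.77, and its p ranked 112 among the 27022 probe sets. It was called under every one of the 15 alternative settings run, between -2.46 and -2.06 with adjusted p from 9.13e-06 to 0.0268. In bulk liver RNA, fewer cells that hold a transcript and less of it per cell cannot be told apart.

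Hepatectomy replicate 1 also carried transcripts of adrenal and fat tissue, which were measured beside Cyp4b1. The 12 measured adrenal markers summed to a signal of 21270 and 259 on hepatectomy replicates 1 and 2, against 288 and 317 on the sham arrays. The defining steroid enzyme Cyp11b1 read 2673 on hepatectomy replicate 1, while it read 5.72 on replicate 2 and 12.9 and 10.3 on the sham arrays, all under the control level. The 11 fat markers summed to 12550 and 13880 after hepatectomy, against 19400 and 17810 after sham. Car3, which hepatocytes express too, gave 4833 and 10506 of these sums after hepatectomy, against 17508 and 15910 after sham. Without Car3, a choice made after seeing the values, the other 10 summed to 7719 and 3370 after hepatectomy, against 1896 and 1900 after sham. The fat hormone gene Adipoq read 574 and 56.3 after hepatectomy, against 4.02 and 6.29 after sham. Fabp4 read 4391 and 2592 after hepatectomy, against 1072 and 1264 after sham, and so gave most of the 3370 on replicate 2. Cidec, Lep and Cidea were also higher on both hepatectomy arrays, Cidea being under the control level on replicate 2. On replicate 2, Pparg, Plin4 and Ucp1 were below both sham arrays, and Retn and Lipe lay between them. Fat transcripts were thus mixed on replicate 2, and adrenal transcripts were higher on replicate 1. Without hepatectomy replicate 1 the log2 difference of Cyp4b1 was -2.37 (adjusted p = 0.000175, with 1 hepatectomy array assumed to vary like the sham arrays); the part of the fat transcripts in it was not tested. The 12 measured hepatocyte markers, among them Alb, were above the control level on every array and 0 of them were called.

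Cyp4a14 hydroxylates medium and long fatty acids and had signals of 11962 and 11209 on the hepatectomy arrays, against 8061 and 9848 on the sham arrays. The hepatectomy values were both higher, by a smaller margin than the gap between the sham arrays. The mean was 11585 ± 532 after hepatectomy and 8954 ± 1264 after sham (SD, n = 2 arrays each), and the log2 difference of 0.38 ± 0.13 did not pass (SE; adjusted p = 0.176). Its 95% interval ran from 1.06-fold to 1.59-fold, before any correction for the number of probe sets.

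Cyp4a12a, an arachidonic acid hydroxylase that mouse liver makes mainly in males, had signals of 3189 and 3010 on the hepatectomy arrays, against 3858 and 4324 on the sham arrays. The groups did not overlap, with means of 3099 ± 127 after hepatectomy and 4091 ± 330 after sham (SD, n = 2 arrays each). The log2 difference of -0.40 ± 0.13 did not pass (SE; adjusted p = 0.184), and its interval ran from 0.61-fold to 0.94-fold. The annotation names Cyp4a12a alone; how far the probes also bind RNA of Cyp4a12b, a close copy in the same cluster, was not tested.

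Cyp4a10 could be read only through a probe set that the annotation gives to both Cyp4a31 and Cyp4a10. Its signals were 9169 and 8705 on the hepatectomy arrays, against 8290 and 9345 on the sham arrays. These values overlap, and the log2 difference was 0.02 ± 0.11 (SE; adjusted p = 0.953), with an interval from 0.85-fold to 1.22-fold, and the sign turned after centring each array on its median (-0.06), without hepatectomy replicate 1 (-0.016) and without sham replicate 1 (-0.065). The 2 probe sets named for Cyp4a31 alone, a neighbour outside the member list that was looked at because of this sharing, differed from it. The first read 314 and 397 after hepatectomy, against 64.2 and 117 after sham, and was called higher (log2 difference 1.92 ± 0.33, adjusted p = 0.0202). The second read 1079 and 1215 after hepatectomy, against 287 and 629 after sham, and was not called (1.41 ± 0.33, adjusted p = 0.0679). The call of the first was lost on leaving out sham replicate 1 (1.53, adjusted p = 0.125), without the filter (adjusted p = 0.091) and without a mean-variance trend (adjusted p = 0.107). The second was called without either hepatectomy array and without sham replicate 2 (adjusted p from 0.016 to 0.0493), and had 0.86 without sham replicate 1 (adjusted p = 0.282). A signal on the shared probe set cannot be divided between its genes.

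**Figure D2:**
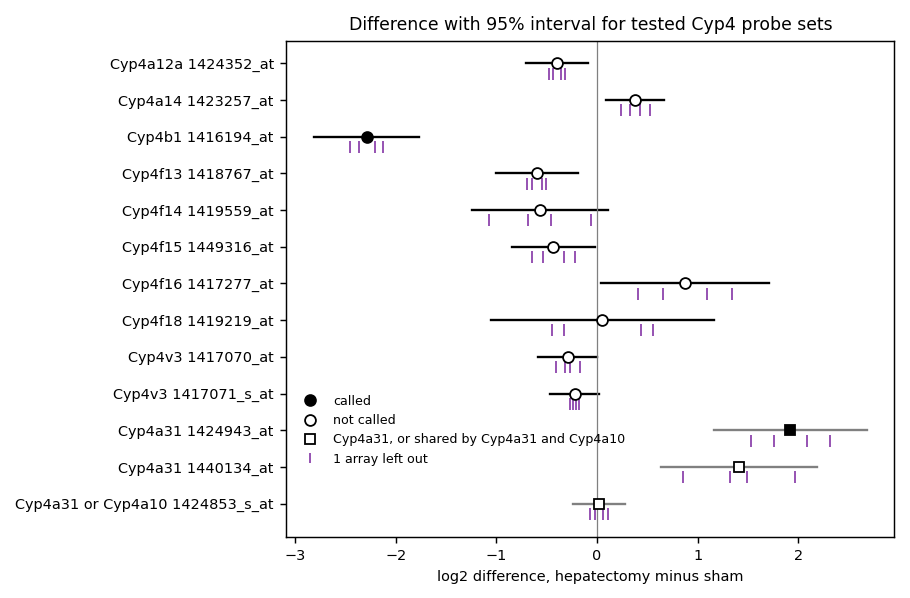
Log2 difference, hepatectomy minus sham, with its unadjusted 95% interval for the 10 tested member probe sets (circles) and for 3 probe sets that name Cyp4a31 (squares). Filled symbols are called and purple ticks are the value with 1 array left out; Cyp4b1 is the called member, at -2.29, while the ticks of Cyp4f14 and Cyp4f18 are spread widely and those of Cyp4f18 lie on both sides of 0.

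Among the Cyp4f genes, Cyp4f14 showed how much 1 array could decide. Cyp4f14, a leukotriene B hydroxylase of mouse liver, had signals of 1727 and 3513 on the hepatectomy arrays, against 3957 and 3374 on the sham arrays. Hepatectomy replicate 1 was low and replicate 2 lay between the sham arrays. The log2 difference was -0.57 ± 0.29 and did not pass (SE; adjusted p = 0.391). It was -0.06 (adjusted p = 0.93) without hepatectomy replicate 1, and -1.08 and called (adjusted p = 0.0038) without hepatectomy replicate 2. The array that read low was the one with the adrenal transcripts and the higher sum of fat markers other than Car3. Their part in this value was not tested.

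Cyp4f13 had signals of 773 and 828 on the hepatectomy arrays, against 1141 and 1297 on the sham arrays. The hepatectomy values were both lower and close to each other, and the log2 difference of -0.60 ± 0.18 was the largest among the members that did not pass and whose groups lay apart on the lower side (SE; adjusted p = 0.13). Cyp4f15 had signals of 2981 and 2218 after hepatectomy, against 3742 and 3228 after sham. These groups lay apart by less than the gap between the hepatectomy arrays, with a log2 difference of -0.43 ± 0.18 (adjusted p = 0.273). Neither Cyp4f13 nor Cyp4f15 was called under any of the 15 alternatives.

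Cyp4f16 was the Cyp4f gene with both hepatectomy arrays above both sham arrays. Its tested probe set read 330 and 169 on the hepatectomy arrays, against 147 and 107 on the sham arrays. The log2 difference of 0.87 ± 0.36 did not pass (SE; adjusted p = 0.278). It was 0.41 without hepatectomy replicate 1 and 1.34 with a call (adjusted p = 0.0358) without hepatectomy replicate 2, so that hepatectomy replicate 1 again held the more extreme value. A second probe set of Cyp4f16 was too dim to be tested and read 40.6 and 19.9 after hepatectomy, against 10.9 and 6.94 after sham. Only hepatectomy replicate 1 was above the control level there. Another probe set, shared with its neighbour Cyp4f37, read 108 and 60.8 after hepatectomy, against 46.4 and 69.2 after sham, which overlap.

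Cyp4f18, which hydroxylates leukotriene B in mouse neutrophils, was near the lower end of what the arrays could measure. Its tested probe set read 60.8 and 25.9 on the hepatectomy arrays, against 27.6 and 52.9 on the sham arrays. The groups overlapped, with a log2 difference of 0.05 ± 0.48 (SE; adjusted p = 0.975) and an interval from 0.48-fold to 2.24-fold; the sign turned after centring each array on its median (-0.03), without hepatectomy replicate 1 (-0.45) and without sham replicate 1 (-0.33). The other probe set of Cyp4f18 read 2.53 and 1.3 after hepatectomy, against 3.79 and 4.0 after sham, all under the control level of 20.4, and was not tested. Neutrophil and monocyte markers were measured beside it. The 15 markers summed to 15360 and 7420 after hepatectomy, against 5429 and 5624 after sham, and 2 of the 7 tested were called higher, S100a8 and S100a9. S100a8 read 4173 and 1204 after hepatectomy, against 177 and 110 after sham, and S100a9 read 5649 and 2316, against 254 and 236. The rise of the sum lay mainly in these 2 genes. Of the other granule genes, Mmp9 read 226 and 94.96 after hepatectomy, against 73.3 and 46.5 after sham, and was not called. Mmp8 read 55.6 and 21.0 after hepatectomy, against 0.754 and 11.0 after sham, and Elane was above the control level on 1 hepatectomy array. Mpo, Camp, Ltf and Ngp were under it on all 4 arrays. Of the remaining markers, Fcgr3 was lower, with 710 and 745 after hepatectomy, against 1123 and 1037 after sham. Ccr2 read 303 and 70.5 after hepatectomy, against 61.2 and 70.2 after sham, and Lyz2, Csf3r, Itgam and Cxcr2 overlapped. The part of such cells in the Cyp4f18 values was not tested.

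Cyp4v3, the mouse counterpart of the human gene CYP4V2 whose loss causes a crystalline disease of the retina, had high signals in both of its probe sets. The first read 5313 and 6286 on the hepatectomy arrays, against 7185 and 6952 on the sham arrays, and the second read 7465 and 7951 on the hepatectomy arrays, against 8883 and 9106 on the sham arrays. Hepatectomy arrays were lower in both, by log2 differences of -0.29 ± 0.13 (SE; adjusted p = 0.305) and -0.22 ± 0.11 (adjusted p = 0.354), and neither passed. These 2 probe sets share a gene and the second is of a type that may match several transcripts, so they are not separate evidence.

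Genes that the receptor Ppara is known to induce were counted next, since Cyp4a10 and Cyp4a14 belong among its standard targets. Of 58 tested, 8 were called higher and 1 lower, where 3.57% of all 12560 genes were called higher and 1.09% lower, 1 probe set standing for each gene. The median log2 difference was 0.11, against 0.02 over all genes. The thioesterase gene Acot3 rose with signals of 3154 and 2969 after hepatectomy, against 674 and 420 after sham (log2 difference 2.50 ± 0.23, adjusted p = 0.00145), on a probe set of the type that may match several transcripts. The fatty acid binding protein gene Fabp2 rose by 0.98 ± 0.11 (adjusted p = 0.00352), Pdk4, a kinase that inhibits pyruvate dehydrogenase, by 2.17 ± 0.27 (adjusted p = 0.00537) and the carnitine acetyltransferase gene Crat by 1.5 ± 0.21 (adjusted p = 0.00815). Only 1 of 3 tested Crat probe sets passed, and their average did not (1.01, adjusted p = 0.0745). Fgf21, a hormone gene, read 374 and 115 after hepatectomy, against 16.7 and 6.77 after sham, both under the control level. It was at least 10.2-fold higher after hepatectomy (adjusted p = 0.0155), a bound of 5.66-fold on replicate 2 alone and 18.3-fold on replicate 1 alone. Acot1 rose by 1.11 ± 0.18 (adjusted p = 0.0172), and the remaining called genes, named after their values were seen, were Acot2 and Plin2 on the higher side and Me1 on the lower, Acot2 and Me1 each in 1 of 2 tested probe sets. Vnn1, a pantetheinase gene, missed the threshold in the brighter of its 2 tested probe sets (0.64 ± 0.14, adjusted p = 0.052), while the other was called higher.

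The targets that were not called ranged from -0.51 for Acot12 to 2.68 for Cidec, a lipid droplet gene (adjusted p = 0.117 and 0.156), both named after their values were seen. Cidec, which is also among the fat markers, read 1406 and 184 after hepatectomy, against 130 and 39.3 after sham. Ehhadh and Aldh3a2, enzymes that act after omega-hydroxylation, had log2 differences of 0.10 ± 0.12 and 0.18 ± 0.12 (adjusted p = 0.731 and 0.532). Cpt1a, the carnitine palmitoyltransferase of mitochondrial entry, had 0.08 ± 0.16, which turned to -0.01 after median centring, and Angptl4 and Creb3l3 had 0.13 and 0.14. Ppara itself read 1785 and 2758 after hepatectomy, against 2936 and 2778 after sham (-0.36 ± 0.21, adjusted p = 0.446), and was called lower without hepatectomy replicate 2 (-0.68, adjusted p = 0.0436). The count of 8 higher genes was 5 without sham replicate 1, 7 without hepatectomy replicate 1 and 13 without hepatectomy replicate 2. Without sham replicate 1 the calls of Acot1, Acot2, Crat, Plin2 and Me1 were lost (adjusted p from 0.053 to 0.138), without sham replicate 2 those of Acot2, Fgf21, Plin2 and Me1 (0.0555 to 0.122), and without hepatectomy replicate 1 that of Plin2 (0.135). Of 25 tested genes listed as partners of Cyp4 enzymes in omega-oxidation, such as alcohol and aldehyde dehydrogenases, 0 were called in either direction. Their median was -0.04. Several of them, such as Ehhadh and Aldh3a2, were also among the Ppara targets, so the 2 lists are not separate. The list also held Hmox1, which is not an enzyme of that route.

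**Figure D3:**
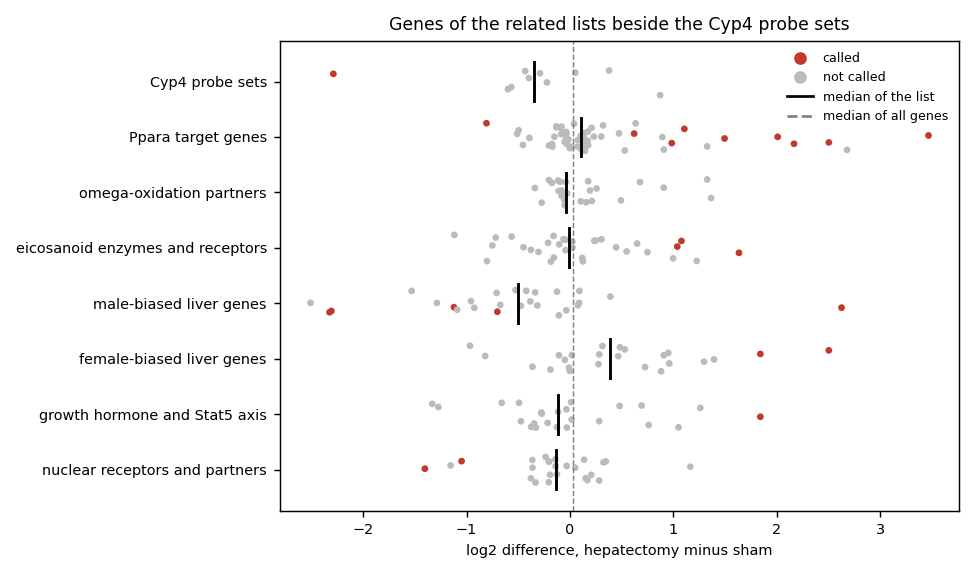
Log2 difference, hepatectomy minus sham, for the 10 tested Cyp4 probe sets and for the genes of 7 related lists, 1 point each, with called genes in red and a black bar at each median. Male-biased genes have a median of -0.50 and female-biased genes one of 0.39, with the other medians between -0.34 and 0.11.

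Male-biased liver genes were examined because Cyp4a12a belongs to them. Of 26 tested male-biased genes other than Cyp4a12a, 4 were called lower and 1 higher, and 21 values were below 0, with a median of -0.50. Over all 12560 genes, 1.09% were called lower and 3.57% higher. Of their values 5911 were below 0 and 6649 above, with a median of 0.02. The sulfotransferase gene Sult5a1 fell by 2.31 ± 0.37 on the log2 scale (SE; adjusted p = 0.0163), as did the glucuronosyltransferase genes Ugt2b1, by 0.70 ± 0.13 (adjusted p = 0.0256), and Ugt2b38, by 2.33 ± 0.43 (adjusted p = 0.0271), and the oxidase gene Nox4, by 1.12 ± 0.21 (adjusted p = 0.0265), in 1 of its 2 tested probe sets. The gene called higher, named after its value was seen, was the ferritin receptor gene Scara5. Of 24 female-biased genes 2 were called higher, Acot3, which is also among the Ppara targets, and Cux2, and 0 lower, with 16 values above 0 and a median of 0.39. Cux2 read 425 and 211 after hepatectomy, against 75.4 and 79.7 after sham (log2 difference 1.84, adjusted p = 0.0335), in 1 of its 3 tested probe sets. Cyp2b9, a female-biased P450, had a log2 difference of 0.31 ± 0.62 (adjusted p = 0.86), which was negative without hepatectomy replicate 2 (-0.55) and without sham replicate 1 (-0.36). The groups of the Cyp4a12a probe set were closer, at 0.76-fold, than those of the called male-biased genes.

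The 2 hepatectomy arrays disagreed on several male-biased genes, as they did on Cyp4f14 and unlike on Cyp4a12a. Hsd3b5, a steroid dehydrogenase gene, read 281 and 4438 on the hepatectomy arrays, against 5664 and 7358 on the sham arrays (-2.51 ± 1.0, adjusted p = 0.258). Slco1a1, an organic anion carrier, read 1639 and 6445 after hepatectomy, against 8629 and 7327 after sham (-1.29 ± 0.51, adjusted p = 0.256), and Cyp7b1, an oxysterol hydroxylase, read 4714 and 8255 after hepatectomy, against 10516 and 9433 after sham (-0.67 ± 0.23, adjusted p = 0.19). Hepatectomy replicate 1 was the lower array in all 3, and without hepatectomy replicate 2 each was called lower. Elovl3, a fatty acid elongase gene, read 1513 and 1261 after hepatectomy, against 1583 and 1871 after sham, with no such gap (adjusted p = 0.432). The count of 4 lower genes was 3 without hepatectomy replicate 1, 15 without hepatectomy replicate 2 and 1 without either sham array: without sham replicate 1, Sult5a1, Ugt2b1 and Nox4 lost their calls (adjusted p from 0.109 to 0.209), and without sham replicate 2, Ugt2b1, Ugt2b38, Nox4 and Scara5 did (0.0571 to 0.128). Ugt2b1 also lost its call without hepatectomy replicate 1 (adjusted p = 0.0846), Ugt2b38 had -3.03 without sham replicate 1, and Scara5 had 1.88 without sham replicate 2 and 3.38 without sham replicate 1. Cux2 lost its call whichever array was left out (adjusted p from 0.126 to 0.978), and without either hepatectomy array another of its probe sets had the highest mean and stood for it. The Y-linked gene Eif2s3y read 3232 and 3542 after hepatectomy, against 4202 and 4100 after sham. Kdm5d and Uty, also Y-linked, were above the control level on all 4 arrays. Xist read 26.5 and 8.47 after hepatectomy, against 0.864 and 17.1 after sham, and was above that level only on hepatectomy replicate 1.

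**Figure D4:**
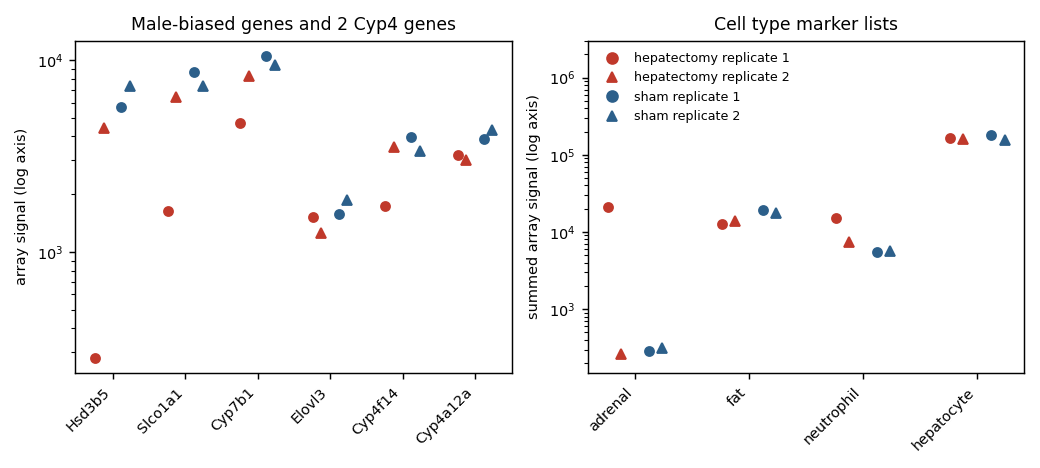
Left, array signal on a log axis of 4 male-biased genes, Cyp4f14 and Cyp4a12a; right, summed signal of 4 marker lists, with hepatectomy arrays (red) left of sham arrays (blue). Hepatectomy replicate 1 (red circle) is the lowest array for Hsd3b5, Slco1a1, Cyp7b1 and Cyp4f14 but not for Cyp4a12a, and has an adrenal sum of 21270 against 259 to 317 on the other arrays.

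The growth hormone pathway, which sets the male pattern of Cyp4a12a, had 1 called gene of 24 tested, Cux2, and a median log2 difference of -0.12. Cux2 was called higher, where 3.57% of all genes were called higher and 1.09% lower. The receptor gene Ghr had a log2 difference of -0.27 ± 0.11 (SE; adjusted p = 0.284), Stat5b, its main signal carrier, -0.38 ± 0.19 (adjusted p = 0.367), and Igf1 0.01 ± 0.13, which turned to -0.08 after median centring. The feedback inhibitor Socs2 read 3751 and 2109 after hepatectomy, against 2568 and 711 after sham (1.05 ± 0.52, adjusted p = 0.373), and was called without sham replicate 1 (1.97, adjusted p = 0.0417). Of 25 nuclear receptors and regulators of lipid metabolism 2 were called lower and 0 higher, Srebf1 (-1.40 ± 0.20, adjusted p = 0.00868) and Mlxipl (-1.05 ± 0.20, adjusted p = 0.0332), both transcription factors of fat synthesis, and the median was -0.14. Mlxipl lost its call without either sham array (adjusted p = 0.111 and 0.163), and Srebf1 without sham replicate 2 (0.0576).

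Genes of eicosanoid synthesis and breakdown were counted too, since substrates of the Cyp4f enzymes lie among the eicosanoids. Of 32 tested, 3 were called higher and 0 lower. The listed eicosanoid receptor genes were not among those tested. Over all genes, 3.57% were called higher and 1.09% lower. The median of the 32 was -0.01. The 3 called genes were the microsomal glutathione transferase gene Mgst3 (1.04 ± 0.18, adjusted p = 0.0233), the epoxygenase gene Cyp2c38 (1.63 ± 0.30, adjusted p = 0.028) and Ptgr1, an enzyme that also breaks down leukotriene B (1.08 ± 0.21, adjusted p = 0.0317). Each of the 3 lost its call without either sham array (adjusted p from 0.0689 to 0.265). Alox5ap, which leukotriene synthesis needs, read 451 and 261 after hepatectomy, against 153 and 184 after sham, and missed the threshold (1.0 ± 0.31, adjusted p = 0.148). Leaving out hepatectomy replicate 2 gave it a call (1.38, adjusted p = 0.0162). The epoxide hydrolase gene Ephx2 had a log2 difference of -0.21 ± 0.11 (adjusted p = 0.379).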

How the data were processed

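The authors deposited linear array intensities, 1 for each probe set on each array. GCOS 1.4 had produced them, per the submitters' processing notes. Without stated settings, detection calls or dates of scanning, no batch could be tested. The mean signal after trimming 2% at each end was 500 on every array, so scaling had been applied before deposit and was kept. After 64 control probe sets were left out, log2(signal + 8.57), the offset being the 20th percentile of all values, was fitted with limma 3.58.1 in R 4.3.3 (lmFit, eBayes with a mean-variance trend, two-sided, Benjamini-Hochberg adjustment). Probe sets averaging below 5.09 on this scale, the 40th percentile, were not tested. Fold changes of dim probe sets are understated. The control level, 20.4, was the highest signal among 27 control probe sets for Bacillus subtilis RNA. Symbols came from the platform annotation: 34945 probe sets had 1 gene, 932 several and 9160 none. In lists, each gene was represented by its tested probe set with the highest mean.

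The members, lists and tests were chosen with earlier results of these data known. Named genes were every member probe set, up to 4 called genes of each list ranked on adjusted p, and a set of genes given whatever their result, some of which are not reported here. Median signal was 57.5 and 46.4 on the hepatectomy arrays and 48.7 and 47.6 on the sham arrays, and the beta-actin 3' to 5' ratio was 2.40 and 2.02 against 2.75 and 2.35. The median absolute log2 gap between the arrays of a group was 0.273 for hepatectomy and 0.234 for sham. Marker sums used the probe set of each gene with the highest mean. Sums not given elsewhere were, on the hepatectomy and then the sham arrays, 29090 and 30150 against 28210 and 31150 for macrophages, 734 and 704 against 1104 and 1032 for lymphocytes, 928 and 1044 against 1057 and 894 for kidney, 1350 and 831 against 500 and 576 for bile duct cells, 15370 and 13950 against 10450 and 12220 for stellate and endothelial cells, 712 and 1107 against 1477 and 1493 for pancreas, and 13780 and 12430 against 869 and 1178 for dividing cells. Of the 13 macrophage markers 1 was called higher, Marco, which read 3194 and 1670 after hepatectomy, against 241 and 172 after sham. Csf1r and Mrc1 were called lower. Cela1 gave most of the pancreas sums, with 640 and 1044 after hepatectomy, against 1360 and 1392 after sham. Slc5a2 gave most of the kidney sums, with 779 and 921 after hepatectomy, against 893 and 757 after sham. The fit was tested on simulated data. The 15 alternatives are given in the closing section. Deviations from the group means had r = 0.102 between same-numbered arrays and -0.102 between differently numbered ones. With 2 arrays a group these values mirror each other and cannot tell whether numbers pair arrays, and no label says so.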

Additional observations from a re-analysis of the deposited data

How the results depend on the processing

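The call of Cyp4b1 and the absence of a call for the other 9 tested member probe sets held under 14 of 15 alternatives; without hepatectomy replicate 2, 2 members were called lower and 1 higher. Over the settings with 1 array left out, in which the lone array of a group is assumed to vary like the other group, the counts ranged from 1 to 2 lower and from 0 to 1 higher. Cyp4f18 turned to -0.0339 after median centring, -0.452 without hepatectomy replicate 1 and -0.331 without sham replicate 1, with up to 0.557 without hepatectomy replicate 2; the cause was not tested, and its signal lay near the control level. Of 149 values for the members under alternatives, 144 kept direction and side of the threshold, 2 gained a call and 3 turned sign. Of the list genes, only those called or given whatever their result were followed singly under the alternatives. Of their 569 values, 469 kept direction and side of the threshold, 77 lost and 16 gained a call and 7 turned sign. Those 7 were Cpt1a (-0.0104 after median centring, -0.0822 without hepatectomy replicate 1, -0.0769 without sham replicate 2, up to 0.234 without hepatectomy replicate 2), Cyp2b9 (-0.55 without hepatectomy replicate 2, -0.36 without sham replicate 1, up to 1.18 without hepatectomy replicate 1) and Igf1 (-0.0759 after median centring, -0.152 without sham replicate 2, up to 0.173 without sham replicate 1).

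Over all probe sets, 916 were called, against 308 without the filter, 258 without a trend, 1943 with a replicate block, 555 genes when probe sets were averaged per gene and 341 to 2012 with 1 array left out. With the replicate block, the paired fit, Cyp4b1 remained the called member (adjusted p = 9.13e-06, 1 lower and 0 higher), 11 male-biased genes were lower, 1 female-biased gene was lower, 2 Ppara targets were lower, 2 omega-oxidation partners were higher, 5 eicosanoid genes were higher and 3 lower, 4 growth hormone genes were higher and 2 lower, and 1 nuclear receptor was higher. Without the filter and without a trend the counts called were 4 and 1 Ppara targets higher, 1 female-biased gene higher under each, and 0 for Ppara targets lower, eicosanoid genes higher, male-biased genes in either direction, growth hormone genes higher and nuclear receptors lower. After median centring 2 omega-oxidation partners, 1 eicosanoid gene and 2 growth hormone genes were higher, and 1 female-biased and 1 growth hormone gene lower. Quantile normalization gave 2 Ppara targets and 1 growth hormone gene lower. Robust eBayes gave 2 Ppara targets, 1 eicosanoid gene and 1 growth hormone gene lower, and 1 omega-oxidation partner, 0 male-biased genes and 2 growth hormone genes higher. Averaging probe sets per gene gave 0 Ppara targets lower, 0 male-biased, 1 female-biased and 0 growth hormone genes higher. Leaving out probe sets that may match several transcripts gave 1 eicosanoid gene and 1 growth hormone gene lower and 2 growth hormone genes higher. With 1 array left out, counts ranged from 5 to 13 higher and 0 to 2 lower for Ppara targets, 0 to 3 higher for omega-oxidation partners, 0 to 4 in either direction for eicosanoid genes, 1 to 15 lower and 0 to 1 higher for male-biased genes, 1 to 4 higher and 0 to 1 lower for female-biased genes, 0 to 1 higher and 0 to 3 lower for growth hormone genes, and 0 to 4 lower and 0 to 1 higher for nuclear receptors.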
